A study of Rattus norvegicus with 11 samples.

Results

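Pericytes and vascular smooth muscle cells, the mural cells that wrap brain vessels, were followed through 10 genes in the striatum of rats with collagenase-induced intracerebral hemorrhage. The genes were taken by symbol, as Pdgfrb, Notch3, Rgs5, Kcnj8, Abcc9, Anpep, Vtn, Acta2, Tagln and Myh11, from the 30560 genes of the count table. All 10 passed the filter on low counts, which left 15742 genes for testing. Brain pericytes lie on capillaries within the basement membrane shared with endothelial cells, and smooth muscle cells form the contractile coat of arteries and arterioles. Pericytes depend on endothelial PDGF acting on the receptor encoded by Pdgfrb, while smooth muscle cells are known by a contractile program of actin, myosin and calponin-family proteins. Some of these transcripts are not confined to mural cells. Anpep is also made by myeloid cells, and Tagln and Acta2 are also made by activated fibroblasts.

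RNA of the striatum was sequenced at day 3 from 11 adult male Sprague-Dawley rats, with 1 library per rat. The 3 IC rats (common hemorrhage) received 0.2 U of bacterial collagenase VII-S in 1.0 μL into the right striatum, and the 3 IS rats (severe hemorrhage) received 0.6 U in 3.0 μL. The 3 IS-HA rats received the IS dose, and 150 μL of hematoma was aspirated through a catheter 6 h later. The 2 Normal rats had neither injection nor aspiration and no vehicle, so that collagenase, needle passage and hemorrhage cannot be told apart in any comparison with them. Collagenase acts on the collagen of vessel walls, the structure in which mural cells are embedded.

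The libraries held 6701301 to 18817645 counts assigned to genes, and the lowest count of any of the 10 genes in any rat was 26, for Abcc9 in IS-HA replicate 2, the smallest library. The striatal markers Ppp1r1b, Drd1 and Drd2 were present in every rat, and Ppp1r1b ranged from 2021 to 2408 CPM (counts scaled to library size) in Normal rats and from 539.5 to 1239 CPM in IS rats. IS-HA replicate 2 stood apart from the other IS-HA rats, with the lowest levels of Rgs5, Abcc9 and Notch3 among all 11 rats. The libraries also differed by gene length. A doubling of gene length went with a log2 CPM higher by 0.16 and 0.28 than the average of all rats in the Normal rats, between -0.02 and 0.06 in IC, between -0.16 and -0.08 in IS, 0.06 and 0.05 in IS-HA replicates 1 and 3, and -0.26 in IS-HA replicate 2. In the deposited values, Notch3, Myh11, Abcc9 and Pdgfrb lay at percentiles 92.7, 90.5, 89.9 and 83.6 of gene length, while Tagln, Rgs5, Acta2 and Vtn lay at percentiles 10.8, 14.5, 18.0 and 18.5. For the 10 genes, results that changed in a fit with this trend removed are given beside the gene or in the closing section. Single values of other genes were not taken from that fit, so whether the trend bears on them was not tested.

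The 10 genes did not move as a block. In IS against Normal, 4 of 10 were higher and 1 was lower at an adjusted p under 0.05 (edgeR quasi-likelihood test, adjusted over all genes tested), where 24.8% of all genes were higher and 24.2% were lower. In IC against Normal 3 were higher and 0 lower, against 13% and 4.64% of all genes, and in IS-HA against Normal 3 were higher and 1 lower, against 19.5% and 12.1%. The median log2 fold change of the 10 genes was 0.48 in IS, -0.18 in IC and -0.12 in IS-HA against Normal. Over all genes tested it was 0.0181 in IS, 0.0033 in IC and 0.0557 in IS-HA. Tagln, Anpep and Kcnj8 were higher in all 3 hemorrhage groups, Rgs5 was lower in IS and IS-HA, and Pdgfrb was higher in IS. All 3 comparisons share the same 2 Normal rats and are therefore not independent of each other. Where rats are said below to lie above or below both Normal rats, this describes the values and is not a test. The share of all genes so separated from Normal is not given here. In bulk tissue, fewer cells of a type and less RNA per cell cannot be told apart.

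**Figure D1:**
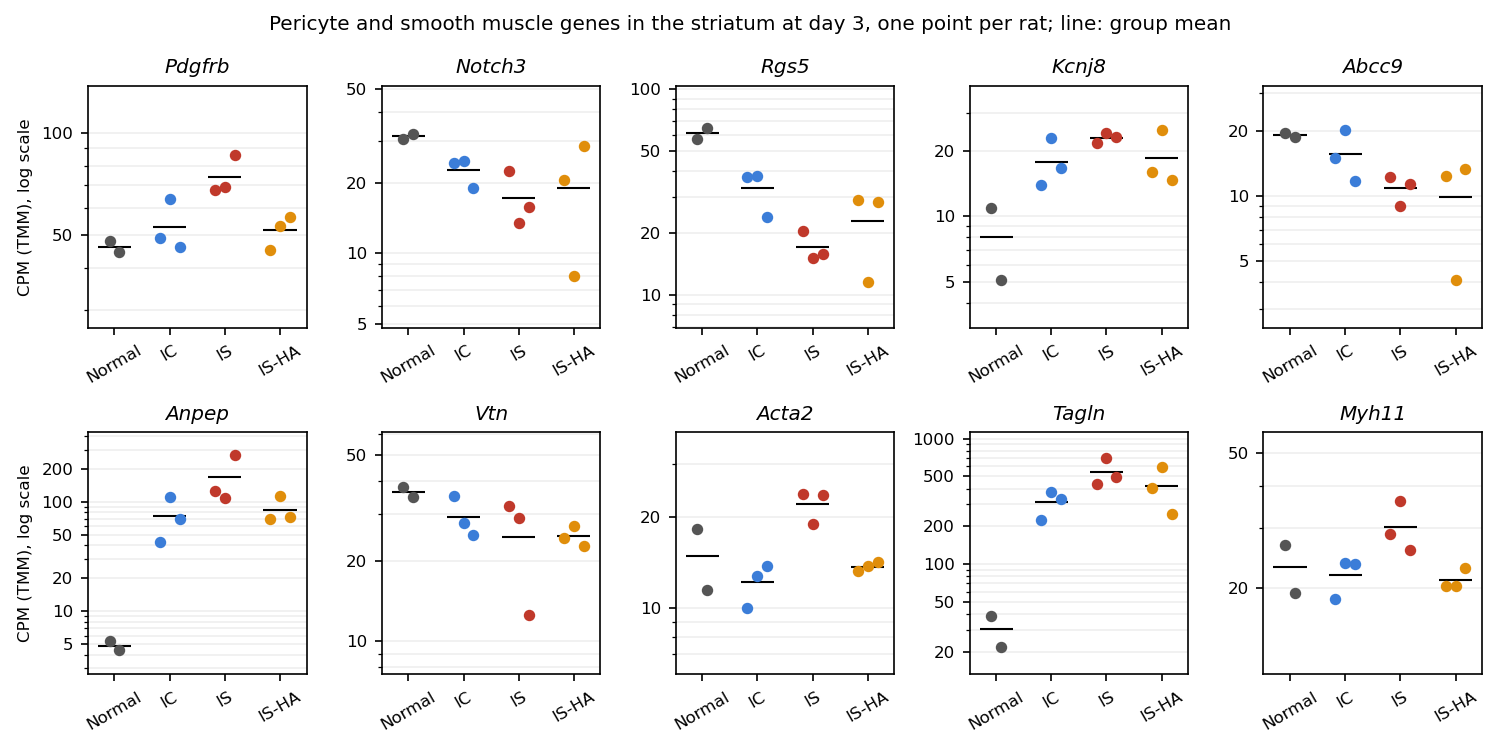
Each panel plots the CPM of 1 gene (log axis, TMM normalization) in the 4 groups, with a point per rat and a line at the group mean. Tagln and Anpep stand far above both Normal rats in all 9 hemorrhage rats, Rgs5 stands below both Normal rats in all 9, and the group means of Acta2, Myh11 and Pdgfrb are highest in IS.

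Pdgfrb and Notch3 encode the receptors through which mural cells are recruited and kept. Pdgfrb (ENSRNOG00000018461), the PDGF-B receptor, was at 47.9 and 44.4 CPM in the Normal rats and at 48.9, 63.7 and 46.0 CPM in IC. It was at 67.6, 69.0 and 85.8 CPM in IS and at 45.1, 53.2 and 56.6 CPM in IS-HA. All IS rats thus exceeded every other rat, and the other 3 groups overlapped. Pdgfrb was higher in IS than in Normal by 0.68 on the log2 scale (SE 0.20, adjusted p = 0.0149), while the difference was 0.20 in IC (SE 0.19, adjusted p = 0.496) and 0.16 in IS-HA (SE 0.19, adjusted p = 0.535). The IS call was lost without Normal replicate 1 (adjusted p = 0.0573) or Normal replicate 3 (adjusted p = 0.109), at log2 differences of 0.74 and 0.63. The summed CPM of 9 fibroblast markers was 175 to 192 in Normal, 370 to 570 in IC, 482 to 725 in IS and 319 to 539 in IS-HA. The part of fibroblasts in the level of Pdgfrb was not tested.

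Notch3 (ENSRNOG00000004346), the Notch receptor of arterial smooth muscle and pericytes, was at 30.7 and 32.1 CPM in Normal, at 24.3, 24.7 and 18.9 CPM in IC, and at 22.5, 13.5 and 15.7 CPM in IS. In IS-HA it was at 20.5, 8.05 and 28.6 CPM, so every hemorrhage rat lay below both Normal rats. The differences from Normal did not pass the test in IC (-0.47), IS (-0.87, SE 0.40, adjusted p = 0.0933) or IS-HA (-0.71, adjusted p = 0.186). Without IS-HA replicate 2 in the fit, the IS value of -0.86 passed it (adjusted p = 0.00875). Notch3 is among the longest of the genes tested, and with the length trend removed its IS difference was -0.38 (adjusted p = 0.297).

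Rgs5 (ENSRNOG00000002730), a regulator of G protein signaling and a leading pericyte marker, was lower in IS, where Pdgfrb was higher. It was also lower in IS-HA, where the difference of Pdgfrb from Normal did not pass the test. Rgs5 was at 57.0 and 64.7 CPM in Normal and at 37.4, 37.99 and 23.9 CPM in IC. In IS it was at 20.4, 15.1 and 15.8 CPM and in IS-HA at 28.9, 11.5 and 28.1 CPM. Every hemorrhage rat lay below both Normal rats, and every IS rat lay below every IC rat. Rgs5 fell by 1.83 on the log2 scale in IS (SE 0.35, adjusted p = 0.00183) and by 1.40 in IS-HA (SE 0.34, adjusted p = 0.0117), with a value of -0.88 in IC (SE 0.34, adjusted p = 0.0971). Without IS-HA replicate 2 the IC value of -0.87 passed the test (adjusted p = 0.0101), and the IS-HA call was lost without Normal replicate 3 (-1.31, adjusted p = 0.0880). Rgs5 is shorter than most genes tested, and its IS difference was -2.46 with the length trend removed (adjusted p = 7.59e-04) and its IC difference, at -1.35, then passed the test (adjusted p = 0.0320).

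The ratio of Rgs5 to Pdgfrb within a rat, on the TPM scale, which is divided by gene length, set the pair side by side. It was 4.44 and 5.44 in the Normal rats, 1.94 to 2.85 in IC, 0.689 to 1.12 in IS and 0.808 to 2.39 in IS-HA, where the lowest value was that of replicate 2. In IS the transcripts of Rgs5 and of Pdgfrb were therefore at about the same level, where Rgs5 had been several times the more abundant in Normal. This ratio, like the others below, was chosen after the values of the genes had been seen and carries no test. The length trend between rats was not removed from any of these ratios.

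Kcnj8 and Abcc9 encode the parts of the vascular ATP-sensitive potassium channel, the pore Kir6.1 and the sulfonylurea receptor SUR2, which set the resting tone of pericytes and smooth muscle. Kcnj8 (ENSRNOG00000013463) was at 10.9 and 5.11 CPM in Normal, at 13.9, 23.0 and 16.8 CPM in IC, at 21.8, 24.2 and 23.1 CPM in IS, and at 16.0, 24.9 and 14.7 CPM in IS-HA. Every hemorrhage rat lay above both Normal rats, which themselves differed by more than the 3 IS rats did. Kcnj8 rose by 1.53 on the log2 scale in IS (SE 0.36, adjusted p = 0.00582), by 1.20 in IS-HA (SE 0.36, adjusted p = 0.0271) and by 1.16 in IC (SE 0.35, adjusted p = 0.0447). Without Normal replicate 3, the lower of the Normal rats, the values were 1.08, 0.76 and 0.72 and none passed the test (adjusted p = 0.0670, 0.232 and 0.355). The IC call was also lost without IC replicate 3 (0.94), IC replicate 4 (1.21), any IS rat or IS-HA replicate 1 or 3, and the IS-HA call without IS-HA replicate 2 (0.94, adjusted p = 0.0557). With the length trend removed, the IC and IS-HA values were 0.88 and 0.89 (adjusted p = 0.0799 and 0.0646).

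Abcc9 (ENSRNOG00000036960) showed no rise. Its level was 19.5 and 18.8 CPM in Normal, 15.1, 20.2 and 11.7 CPM in IC, 12.2, 8.99 and 11.4 CPM in IS, and 12.3, 4.10 and 13.4 CPM in IS-HA. All IS and IS-HA rats lay below both Normal rats, and IC overlapped Normal. The differences were -0.29 in IC, -0.82 in IS (SE 0.40, adjusted p = 0.109) and -0.92 in IS-HA (SE 0.40, adjusted p = 0.0957), none past the test. Without IS-HA replicate 2 the IS value of -0.82 passed it (adjusted p = 0.0111), and with the length trend removed it was -0.40 (adjusted p = 0.304).

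In the reported fit Kcnj8 thus passed the test upward in each hemorrhage group and Abcc9 in none. The TPM ratio of Kcnj8 to Abcc9 was 1.52 and 0.743 in the Normal rats, 2.51 to 3.89 in IC, 4.85 to 7.33 in IS and 2.99 to 16.6 in IS-HA, the last being replicate 2. No hemorrhage rat fell within the Normal range. Kcnj8 lay at percentile 37.1 of gene length and Abcc9 at 89.9. TPM does not remove the length trend between rats, and the part of that trend in this ratio was not tested. The genes lie next to each other on chromosome 4, with 0 annotated genes between them in RefSeq. Their upstream sequences are printed because the neighbours encode parts of the same channel and differed in their values. They are the 250 bases before each start from RefSeq (GRCr8, chr4:177246549-177246798 for Kcnj8 and chr4:177386349-177386598 for Abcc9, both on the minus strand), 5′ to 3′, with CG dinucleotides in capitals.
Kcnj8: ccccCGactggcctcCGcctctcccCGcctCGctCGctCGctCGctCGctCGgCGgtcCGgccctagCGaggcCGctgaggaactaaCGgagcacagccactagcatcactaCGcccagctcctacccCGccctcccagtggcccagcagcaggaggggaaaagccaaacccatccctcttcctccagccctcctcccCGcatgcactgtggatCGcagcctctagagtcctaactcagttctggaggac
Abcc9: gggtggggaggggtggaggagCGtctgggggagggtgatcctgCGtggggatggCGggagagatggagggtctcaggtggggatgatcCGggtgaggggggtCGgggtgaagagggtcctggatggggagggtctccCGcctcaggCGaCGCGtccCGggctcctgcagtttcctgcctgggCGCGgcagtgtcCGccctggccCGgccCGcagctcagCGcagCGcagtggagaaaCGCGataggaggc
Both windows are rich in CG, with 18 CG dinucleotides and 66.8% G and C in Kcnj8 and 19 and 71.2% in Abcc9, where the medians over 33469 windows were 5 and 51.2%. Of the motifs searched on both strands, which were the CArG box (bound by serum response factor), the E-box CANNTG, the muscle motif MCAT (CATTCC) and the RBPJ core TGGGAA, the Abcc9 window held 1 E-box, 177 to 172 bases before the start, and the Kcnj8 window held none of the 4. E-boxes were found in 65.5% of all windows of this length.

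The neuronal and beta-cell type of the same channel is built from Kcnj11 (Kir6.2) and Abcc8 (SUR1). Kcnj11 was at 45.0 and 47.2 CPM in Normal and at 10.2 to 29.3 CPM in IS, a fall by 1.03 on the log2 scale (SE 0.35, adjusted p = 0.0318). Abcc8 fell by 1.32 in IS (SE 0.29, adjusted p = 0.00408), from 18.3 to 22.5 CPM in Normal to 6.47 to 10.4 CPM. Of the 4 channel genes Kcnj8 was the one that was higher in IS, and the summed CPM of 8 striatal neuron markers was 6142 to 6669 in Normal and 1359 to 3325 in IS, whose part in the values of Kcnj11 and Abcc8 was not tested.

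**Figure D2:**
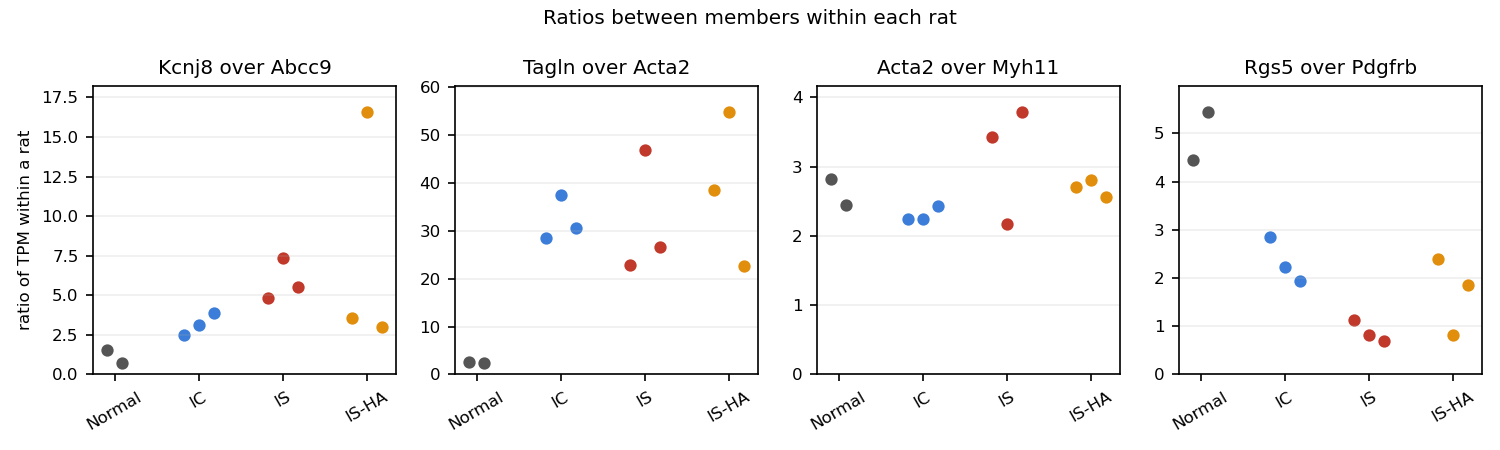
Each panel plots a ratio of TPM between 2 of the genes, with a point per rat and the 4 groups along the axis. Kcnj8 over Abcc9 and Tagln over Acta2 are above both Normal rats in all 9 hemorrhage rats, Rgs5 over Pdgfrb is below them in all 9, and Acta2 over Myh11 lies between 2.18 and 3.78 throughout.

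Anpep and Vtn encode proteins on and around the pericyte. Anpep (ENSRNOG00000014610), the surface peptidase CD13, had the largest log2 change of the 10 genes. It was at 5.29 and 4.42 CPM in Normal and at 42.9, 111.9 and 70.1 CPM in IC. In IS it was at 125.1, 109.1 and 269.0 CPM and in IS-HA at 69.7, 112.5 and 73.0 CPM. Anpep rose by 5.11 in IS (SE 0.57, adjusted p = 1.01e-04), by 4.13 in IS-HA (SE 0.54, adjusted p = 4.41e-04) and by 3.95 in IC (SE 0.54, adjusted p = 7.27e-04). CD13 is also a classical antigen of monocytes and neutrophils, and all 8 myeloid markers (Aif1, Csf1r, Itgam, Tyrobp, Cd68, Ptprc, S100a8 and S100a9) rose in each hemorrhage group. Their summed CPM was 135 to 175 in Normal, 852 to 1208 in IC, 1296 to 2033 in IS and 1049 to 1677 in IS-HA. The rats with the highest Anpep in IC, IS and IS-HA (replicates 3, 4 and 2) were also those with the highest myeloid sum in their group, and the part of myeloid cells in the rise of Anpep was not tested.

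Vtn (ENSRNOG00000010031) encodes vitronectin, an adhesive glycoprotein that pericytes secrete. Its level was 38.03 and 34.8 CPM in Normal, 35.2, 27.7 and 25.2 CPM in IC, 32.3, 29.0 and 12.5 CPM in IS, and 24.3, 27.1 and 22.8 CPM in IS-HA. IS and IS-HA rats lay below both Normal rats, and the IS rats spread more widely than any other group, with replicate 4 lowest. The differences of -0.31, -0.56 and -0.56 in IC, IS and IS-HA did not pass the test (adjusted p = 0.525, 0.169 and 0.198), but without IS replicate 4 the IS-HA value of -0.56 did (adjusted p = 0.0477). Vtn passed the test in the fit with the length trend removed, at -1.10 in IS (adjusted p = 0.0137) and -1.07 in IS-HA (adjusted p = 0.0234). Among the receptors of vitronectin, Plaur, the urokinase receptor, rose in IS by 4.93 (adjusted p = 2.14e-04) and Itgb5, an integrin chain, by 1.51 (adjusted p = 4.70e-04). The integrin chains Itgav (-0.43) and Itgb3 (1.42) did not pass the test.

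Acta2, Tagln and Myh11 are genes of the contractile apparatus and gave different results. Tagln (ENSRNOG00000017628), the actin-binding protein SM22-alpha, was at 38.2 and 22.02 CPM in Normal and at 225.3, 377.5 and 332.6 CPM in IC. It was at 430.9, 699.1 and 497.3 CPM in IS and at 402.2, 592.5 and 251.8 CPM in IS-HA. Even the lowest hemorrhage rat was several times above the higher Normal rat. Tagln rose by 4.17 on the log2 scale in IS (SE 0.46, adjusted p = 9.41e-05), by 3.79 in IS-HA (SE 0.45, adjusted p = 2.52e-04) and by 3.37 in IC (SE 0.44, adjusted p = 5.75e-04). The values were 3.47, 3.10 and 2.85 with the length trend removed, all still past the test.

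Acta2 (ENSRNOG00000058039), smooth muscle alpha-actin, was at 18.3 and 11.4 CPM in Normal and at 10.02, 12.8 and 13.8 CPM in IC. It was at 23.9, 19.0 and 23.7 CPM in IS and at 13.2, 13.7 and 14.2 CPM in IS-HA. The IS rats were above all other rats, while IC and IS-HA lay close to or within the Normal range. Acta2 differed from Normal by 0.58 in IS (SE 0.24, adjusted p = 0.0704), by -0.28 in IC and by -0.12 in IS-HA, none past the test. The IS value passed it with library size alone as the scaling (0.71, adjusted p = 0.0348) and without Normal replicate 1 (0.95, adjusted p = 0.0306). With the length trend removed it was 0.03 (adjusted p = 0.924), and the IC value was then -0.72 and past the test (adjusted p = 0.0426).

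Myh11 (ENSRNOG00000057880), the smooth muscle myosin heavy chain, was at 26.8 and 19.4 CPM in Normal and at 18.5, 23.7 and 23.5 CPM in IC. It was at 28.8, 36.0 and 25.9 CPM in IS and at 20.2, 20.2 and 22.8 CPM in IS-HA. IS overlapped Normal by 1 rat, replicate 4, and lay above all IC and IS-HA rats. No difference from Normal passed the test, with 0.39 in IS (SE 0.22, adjusted p = 0.160), -0.08 in IC and -0.13 in IS-HA. In the fit with the length trend removed, the IS value was 0.81 and passed it (adjusted p = 0.0260).

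Within a rat, Tagln was set against the other contractile genes by ratios. The TPM ratio of Tagln to Acta2 was 2.65 and 2.44 in the Normal rats, 28.6 to 37.5 in IC, 22.9 to 46.8 in IS and 22.6 to 54.8 in IS-HA. Both genes are short, so this ratio sets genes of similar length side by side. By contrast the TPM ratio of Acta2 to Myh11 lay between 2.18 and 3.78 in all 11 rats, with 2.82 and 2.45 in Normal. Acta2 is short and Myh11 long, and with the length trend removed their IS differences from Normal, 0.58 and 0.39 as reported, were 0.03 and 0.81. Among fibroblast markers 7 of 9 rose and 0 fell in IS, with Postn up by 6.01 (adjusted p = 3.13e-05), Col3a1 by 3.60 (adjusted p = 1.36e-04) and Lum by 2.43 (adjusted p = 7.88e-04). The summed CPM of the 9 markers was 175 to 192 in Normal, 370 to 570 in IC, 482 to 725 in IS and 319 to 539 in IS-HA. In IC the rat with the highest Tagln (replicate 3) also had the highest fibroblast sum (570 CPM). In IS and IS-HA the rats with the highest Tagln (replicates 3 and 2) had the lowest fibroblast sum of their group (482 and 319 CPM). The part of fibroblasts in the level of Tagln was not tested.

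The 250 bases before the start of Acta2 are printed because its promoter is the textbook case of control by CArG boxes, which serum response factor binds (RefSeq, GRCr8, chr1:241172504-241172753, minus strand, 5′ to 3′). Capitals mark 2 near CArG boxes, in which 1 base of the core is G or C in place of A or T.
Acta2: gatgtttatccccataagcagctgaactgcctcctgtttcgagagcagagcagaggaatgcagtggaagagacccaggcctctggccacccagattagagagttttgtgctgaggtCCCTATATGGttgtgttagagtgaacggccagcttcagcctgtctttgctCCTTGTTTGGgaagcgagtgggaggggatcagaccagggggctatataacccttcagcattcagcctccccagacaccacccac
The near CArG boxes lay 134 to 125 and 84 to 75 bases before the start. A search for the exact CArG box found no match in the windows of the 7 mural genes that had one, and the near form was added to the search after that result had been seen. The exact form was found in 1.5% and the near form in 6.84% of the 33469 windows. The Acta2 window also held an MCAT motif 196 to 191 bases before the start (12.1% of windows), an E-box 232 to 227 bases before it and an RBPJ core 77 to 72 bases before it (22.1% of windows), which overlapped the proximal near CArG box. Such matches describe letters and not occupied sites. The windows of Rgs5, Vtn, Notch3 and Anpep held no exact or near CArG box, and Pdgfrb, Tagln and Myh11 had no entry in the table.

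The actin paralogs, whose reads can be hard to assign between near-identical copies, were set beside Acta2. Actb, cytoplasmic beta-actin, rose by 1.65 in IS (SE 0.29, adjusted p = 0.00113) and Actg1, cytoplasmic gamma-actin, by 0.82 (SE 0.21, adjusted p = 0.00787). Acta1, skeletal alpha-actin, gave -0.36 in IS (SE 0.43, adjusted p = 0.508). Actg2, the other smooth muscle actin, with 39 counts over all rats, and Actc1, with 2, were too low to test. The Acta2 values carry this uncertainty, since the handling of shared reads is not given in the sources used here.

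Related contractile genes also moved in both directions. In IS, 7 of the 14 tested rose, 2 fell and 5 did not pass the test, with a median log2 fold change of 0.55. For the counts of this and the other lists, the shares over all genes were 24.8% higher and 24.2% lower in IS. They were 13% and 4.64% in IC, and 19.5% and 12.1% in IS-HA. Cnn1, the smooth muscle protein calponin, rose by 3.90 (SE 0.77, adjusted p = 0.00225), from 0.291 and 0.436 CPM in Normal, which are 5 and 7 counts, to 3.15 to 8.81 CPM in IS. Des, the intermediate filament desmin, which pericytes and smooth muscle cells share, rose by 3.56 (SE 0.65, adjusted p = 0.00157), from 3.72 to 4.61 CPM in Normal to 35.3 to 71.0 CPM in IS. Mrtfb, a coactivator of serum response factor that neurons also make, fell by 3.99 (SE 0.66, adjusted p = 8.79e-04), from 72.7 and 130 CPM in Normal to 4.13 to 9.88 CPM in IS. Srf itself gave -0.32 and Mrtfa 0.06, neither past the test in IS, and Myocd, the smooth muscle coactivator of serum response factor, had 38 counts over all rats and was not tested. In IC, 2 of the 14 rose and 0 fell, and in IS-HA 6 rose and 2 fell.

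Of 15 further pericyte genes tested, 3 rose and 4 fell in IS, with a median of 0.20. These counts were close to the shares over all genes, 24.8% higher and 24.2% lower. Gucy1a1 and Gucy1b1, the subunits of the nitric oxide receptor guanylate cyclase, fell by 2.29 (SE 0.41, adjusted p = 0.00137) and 2.02 (SE 0.45, adjusted p = 0.00454). Both are also made by striatal neurons, whose markers fell in IS in 7 of 8 cases, and the part of neurons in these values was not tested. Cd248, endosialin, which pericytes and fibroblasts share, rose by 1.69 (SE 0.36, adjusted p = 0.00362), from 7.53 to 9.76 CPM in Normal to 23.1 to 31.9 CPM in IS. In IC 1 rose and 0 fell, and in IS-HA 2 rose and 3 fell.

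The signals that act between endothelial and mural cells gave 5 genes higher and 2 lower of 15 in IS, with a median of 0.44, 4 higher and 1 lower in IC, and 4 higher and 1 lower in IS-HA. Tgfb1, a ligand that promotes contractile gene expression, rose by 3.63 (SE 0.34, adjusted p = 4.08e-05), and its receptor gene Tgfbr2 by 2.28 (SE 0.34, adjusted p = 4.80e-04). S1pr3, a sphingosine-1-phosphate receptor of smooth muscle, rose by 3.09 (SE 0.35, adjusted p = 1.04e-04). Heyl, a Notch target prominent in mural cells, fell by 0.88 in IS (SE 0.21, adjusted p = 0.00676), by 0.70 in IC (adjusted p = 0.0439) and by 0.65 in IS-HA (adjusted p = 0.0409). Tgfb1 and Tgfbr2 are also made by myeloid cells, whose summed markers are given above.

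**Figure D3:**
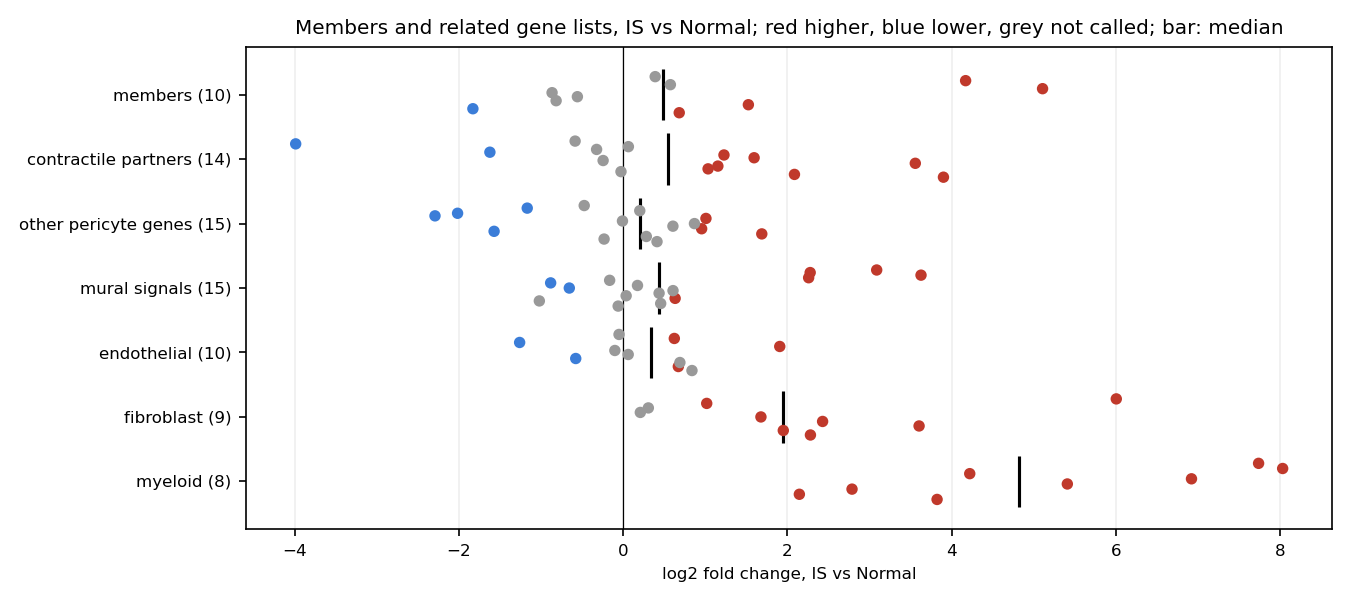
Each point is the log2 fold change of a gene in IS against Normal, in rows for the 10 genes and for related lists (number of genes tested in brackets), red for higher, blue for lower and grey for not past the test, with a bar at the median. The 10 genes spread from -1.83 to 5.11 around a median of 0.48, while all 8 myeloid markers lie to the right of 0 around a median of 4.82.

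Markers of the endothelium, the inner layer of the same vessels, were listed beside the mural genes. Of 10 endothelial genes, 3 rose and 2 fell in IS, with a median of 0.34. Tie1 rose by 1.91 (adjusted p = 5.38e-04) and Pecam1 by 0.67 (adjusted p = 0.0209), while Abcb1a, an efflux pump of the blood-brain barrier, fell by 1.26 (adjusted p = 0.0398). The summed CPM of the 10 genes was 424 to 604 in Normal, 603 to 711 in IC, 731 to 782 in IS and 600 to 768 in IS-HA. Each mural gene was set against the mean log2 CPM of these 10 genes in the same rat, as a description. Relative to that mean and to Normal, IS was higher by 4.70 for Anpep, 3.90 for Tagln and 1.33 for Kcnj8. It was higher by less for Pdgfrb (0.39), Acta2 (0.32) and Myh11 (0.10). For Pdgfrb the IS rats stood at 0.31 to 0.52 and the Normal rats at -0.17 and 0.17. The endothelial mean itself differed between the Normal rats, at 5.24 and 4.79 log2 CPM, and was 5.23 to 5.39 in IS. IS was lower for Rgs5 (-2.13), Notch3 (-1.19), Abcc9 (-1.11) and Vtn (-0.97). Of these genes, Notch3, Abcc9 and Vtn did not pass the test in IS against Normal as reported. The length trend between rats was not removed from the values set against the endothelial mean, which carry no test. In IC and IS-HA, Pdgfrb stood at -0.15 and -0.03, and Rgs5 at -1.24 and -1.71.

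**Figure D4:**
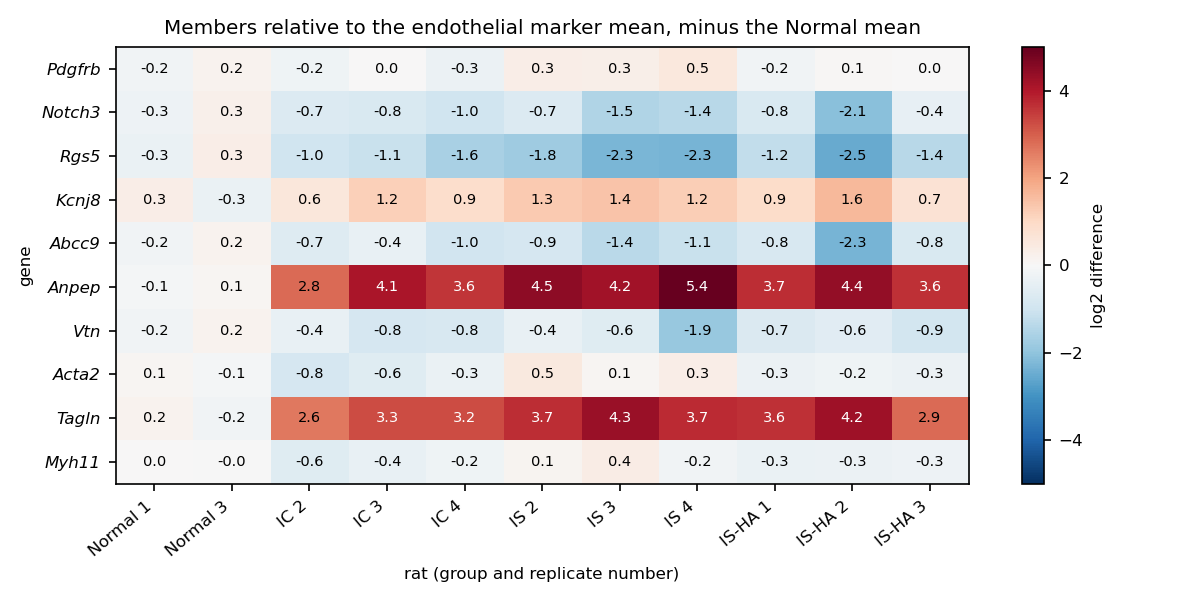
The cells of the map give, for each gene (rows) and rat (columns), the log2 CPM minus the mean log2 CPM of 10 endothelial markers in that rat, less the mean of this difference in the 2 Normal rats. Red rows (Anpep, Tagln, Kcnj8) and blue rows (Rgs5, Notch3, Abcc9, Vtn) keep their colour in all 9 hemorrhage rats, and Pdgfrb, Acta2 and Myh11 stay between -0.84 and 0.52. The map carries no test, and the length trend between rats was not removed from it.

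Severe and common hemorrhage were compared directly, which asks whether the collagenase dose and the larger hematoma went with a further change. At an adjusted p under 0.05, 0 of the 10 genes differed between IS and IC in edgeR's test, as did 0% of all genes in either direction. At an unadjusted p under 0.05, 6 of the 10 did, where 22.2% of all genes did. DESeq2's Wald test called 1, Acta2 (0.88, adjusted p = 0.0125), where it called 2.98% of all genes higher and 3.21% lower. In 4 genes every IS rat lay above every IC rat, which held for 19.2% of all genes, and in 1 gene every IS rat lay below, which held for 18.7%. The 4 were Acta2 (0.86, SE 0.22, adjusted p = 0.147), Tagln (0.80, SE 0.34, adjusted p = 0.206), Pdgfrb (0.48, SE 0.17, adjusted p = 0.172) and Myh11 (0.47, SE 0.20, adjusted p = 0.204), and the 1 was Rgs5 (-0.95, SE 0.32, adjusted p = 0.163). Anpep, at 1.16 (SE 0.40, adjusted p = 0.165), overlapped by 1 rat of IC. Without IS-HA replicate 2 in the fit, Rgs5 (-0.95, adjusted p = 0.0241) and Acta2 (0.86, adjusted p = 0.0308) passed the test, but 6.38% of all genes were then higher and 7.71% lower.

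Aspiration was compared with severe hemorrhage without it. The IS-HA rats were anesthetized again for the catheter, and no such step is described for the IS rats. Anesthesia, catheter passage and removal of hematoma therefore cannot be told apart here. Of the 10 genes, 0 differed between IS-HA and IS in edgeR's test, in DESeq2's Wald test or in limma's test on TPM. Among all genes, 0.00635% (1 gene) were higher and 0% lower in edgeR's test, and 0.318% and 0.133% in DESeq2's. At an unadjusted p under 0.05, 4 of the 10 differed, all lower in IS-HA, where 8.94% of all genes differed. In 3 genes every IS-HA rat lay below every IS rat, against 5.42% of all genes, and in 0 every IS-HA rat lay above, against 4.96%. They were Acta2 (-0.69, SE 0.22, adjusted p = 0.540), Pdgfrb (-0.52, SE 0.17, adjusted p = 0.540) and Myh11 (-0.52, SE 0.20, adjusted p = 0.543). Anpep was at -0.98 (SE 0.40, adjusted p = 0.550) and Tagln at -0.39, both with overlap. Rgs5 was at 0.43 (SE 0.32) and its IS-HA rats split, with replicates 1 and 3 above all IS rats and replicate 2 below them. Without IS-HA replicate 2 in the edgeR fit, 3.4% of all genes were higher in IS-HA than in IS and 0.975% lower, and the 10 genes still did not pass the test. Between IS-HA and IC, 0 of the 10 genes passed the test, as did 0% of all genes in either direction, and 0 of 10 had an unadjusted p under 0.05, where 4.97% of all genes did. All 10 overlapped, while every IS-HA rat lay above every IC rat in 4.66% of all genes and below in 4.36%.

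**Figure D5:**
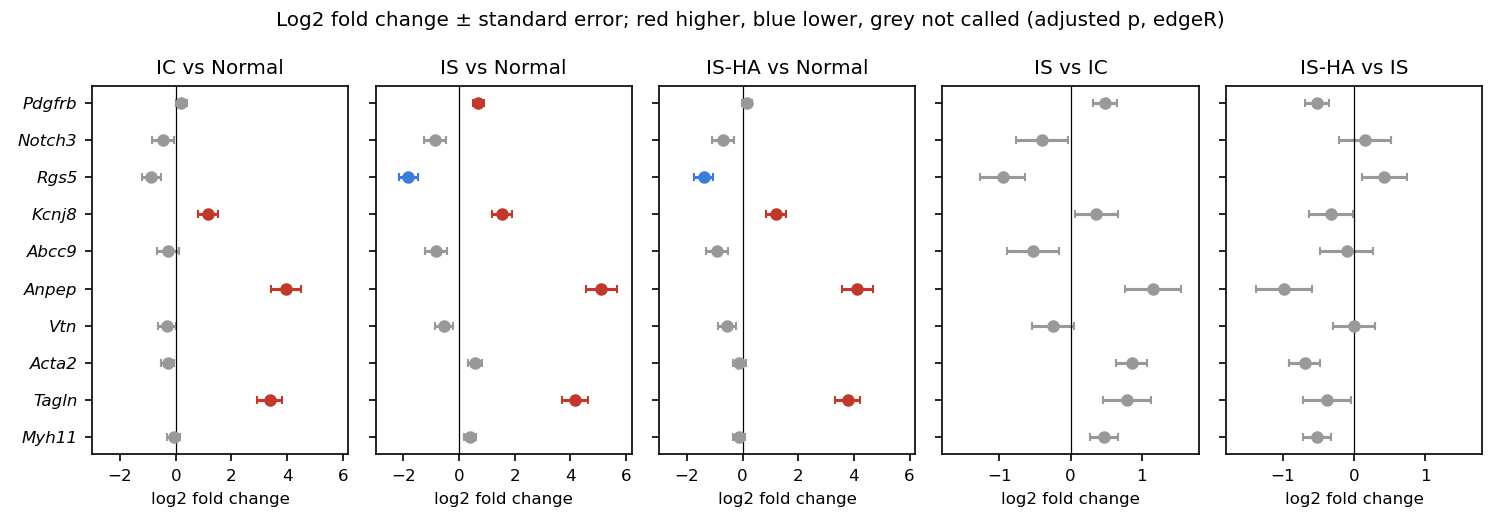
Each panel plots the log2 fold change of the 10 genes in a comparison, with bars of 1 standard error, red for higher, blue for lower and grey for not past the test. Against Normal, Tagln and Anpep reach 3.37 to 5.11 in all 3 groups, and the 2 panels on the right, with a narrower axis, hold grey points alone.

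The order of the transcripts by TPM changed between Normal and IS. TPM is divided by gene length, but the length trend between rats was not removed from these levels. In Normal, Rgs5 led at 91.7 ± 14.1 TPM (SD, n = 2), followed by Tagln at 51.1 ± 16.3 and Vtn at 48.4 ± 0.0219, which overlapped. Next came Acta2 at 19.9 ± 5.25 and Pdgfrb at 18.5 ± 0.205, which overlapped. Notch3 at 9.35 ± 0.905 lay above Myh11 at 7.48 ± 1.24, and Myh11 above Abcc9 at 6.38 ± 0.228, while Kcnj8 at 7.16 ± 3.25 overlapped all 3. Anpep was last at 3.14 ± 0.199. In IS, Tagln led at 918 ± 227 TPM (SD, n = 3) and Anpep came next at 106 ± 49.1. Vtn at 33.0 ± 15.7, Acta2 at 29.7 ± 4.50, Pdgfrb at 29.4 ± 2.36 and Rgs5 at 25.6 ± 5.94 overlapped each other. Kcnj8 at 20.7 ± 1.11 lay below Acta2, Pdgfrb and Rgs5 in every rat but within the range of Vtn. Myh11 at 9.79 ± 1.88 followed without overlap, and Notch3 at 5.12 ± 1.72 and Abcc9 at 3.60 ± 0.694 were last and overlapped. Anpep thus went from the last place to the second, and Rgs5 from the first to a shared place behind Anpep.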

How the data were processed

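Gene-level read counts, as whole numbers, and TPM were both deposited by the authors for 11 rats with 1 library each. The deposited counts carry no normalization, and in the deposited TPM counts were divided by gene length and scaled to a common sum. The submitters' processing notes name, without role or order, bcl2fastq, fastp 0.20.0, FastQC 0.11.9, MultiQC, HISAT2 2.1.0, SAMtools 1.9, featureCounts, Subread and DESeq2, and the build mRatBN7.2. The strand setting of the counting is not given in the sources used here. Columns were assigned to rats by library name, and the labels name no more than separate samples.

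In R 4.3.3, edgeR 4.0.16 removed low counts (filterByExpr), scaled libraries by TMM and ran the quasi-likelihood F test on all 4 groups at once. P-values were adjusted by Benjamini-Hochberg over 15742 genes, with a threshold of 0.05. The standard error was taken from the log2 fold change and F, as the size of the former over the root of the latter, which is an approximation. Every fold change is on the log2 scale. CPM levels use the TMM factors and compare rats. Levels between genes use TPM. Depth was 6701301 to 18817645 counts per library, and intervals from counts would cover counting error only. Within groups, no 2 libraries agreed within sampling noise.

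Alternatives were DESeq2's size factors, library size alone, TMM without 12 hemoglobin and mitochondrial genes, the Wald test of DESeq2 1.42.0, limma 3.58.1 on log2(TPM + 1) and log2(TPM + 0.1), no filter, a minimum of 10 counts per rat, fits of only the groups compared, leaving out each rat, the replicate block, and a further cutoff at a log2 fold change of 1. Added after seeing the data was a fit with a loess trend on gene length removed in each rat, with length taken from the ratio of counts to TPM. The edgeR test, without the length step, was also run on simulated data, and the outcome is not given here.

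The 10 genes and the lists of related genes and markers were chosen with earlier results of these data known. All 10 genes were named in every comparison. Of each related list (contractile, pericyte, signal, partner, fibroblast and endothelial genes), up to 3 with the largest absolute change past the test in IS against Normal were named, with the gene furthest in the opposite direction where it passed. 1 gene of the partner list is not reported here. Kcnj11, Abcc8 and the actin paralogs were always named, and genes given as not past the test or not tested (Srf, Mrtfa, Myocd, Itgav and Itgb3) were chosen after their values were seen. Of 16 other pericyte genes 1, Higd1b, was not matched by symbol. Promoter windows came from RefSeq (GRCr8), 7 of the 10 genes having one, and since the files use another build no other RefSeq coordinates were used. A planned identity between actin proteins was not computed, as no protein table was used here. Figures used matplotlib 3.10.9 (Python 3.11.15).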

Additional observations from a re-analysis of the deposited data

How the results depend on the processing

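Over the alternatives, 1036 of 1100 values of the 10 genes kept their direction and their side of the threshold, 23 lost a call, 17 gained one and 24 changed sign. Tagln and Anpep stayed higher and past the test in all 3 hemorrhage groups under every alternative run. Of the counts of called genes, the number higher in IS than Normal, 4 as reported, was 2 with the replicate block (11.9% of all genes) and 2 to 4 with a rat left out (14% to 30.2%). Acta2 was added to it with library size alone, and Myh11 with the length trend removed (21.2% of all genes). The numbers higher in IC and IS-HA, each 3 as reported (13% and 19.5% of all genes), were smaller where Kcnj8 lost its call. The number lower in IS than Normal, 1 as reported, was 3 with only the groups compared (26.3% of all genes), 0 with the replicate block (5.77%), 2 with the length trend removed (27.5%) and 1 to 3 with a rat left out (10.6% to 29.2%). The number lower in IC than Normal, 0 as reported, was 1 with only the groups compared (16.7% of all genes), 2 with the length trend removed (12.8%) and 0 to 1 with a rat left out (0.217% to 14.1%). The number lower in IS-HA than Normal, 1 as reported, was 0 with only the groups compared (4.77% of all genes), 2 with the length trend removed (19.2%) and 0 to 2 with a rat left out (2.18% to 12.9%). In IS against IC the number higher was 1 by DESeq2's Wald test, and the numbers higher and lower were each 0 to 1 with a rat left out (0% to 6.38% and 0% to 7.71%). The length step also turned the balance of calls over all genes, with 11.3% higher against 12.8% lower in IC and 15.2% against 19.2% in IS-HA.

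The sign changes were all in differences that did not pass the test as reported. With library size alone, which moved the median of all genes against Normal by 0.14 in IC and 0.13 in IS and IS-HA, Myh11 was at 0.062 in IC and 0.0018 in IS-HA against Normal, Acta2 at 0.014 in IS-HA against Normal and Vtn at -0.0171 in IS-HA against IS. Vtn was there at -0.0233 with DESeq2's size factors and -0.0225 by its Wald test. With the length trend removed, Myh11 was at 0.0474 in IC and 0.13 in IS-HA against Normal, and Notch3 at -0.10 in IS-HA against IS. With a rat left out, the range was -0.59 to 0.0909 for Acta2 and -0.30 to 0.18 for Myh11 in IC against Normal, -0.42 to 0.26 for Acta2 and -0.35 to 0.12 for Myh11 in IS-HA against Normal, -0.49 to 0.061 for Vtn in IS against IC, and -0.38 to 0.24 for Abcc9, -0.31 to 0.24 for Vtn and -0.27 to 0.50 for Notch3 in IS-HA against IS.

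The labels do not say that replicate numbers pair the rats. The mean correlation of deviations from the group means between same-numbered rats was 0.03 for IC and IS, -0.25 for IS and IS-HA and -0.15 for IC and IS-HA. Between differently numbered rats it was -0.02, 0.08 and 0.04. With 2 or 3 same-numbered pairs in each case, these values cannot settle whether the numbers carry a pairing. With the replicate block, Abcc9 was at 0.14 and Myh11 at 0.11 in IC against Normal, Vtn at -0.16 and Notch3 at -0.0904 in IS-HA against IS, and in IS against Normal Pdgfrb (0.66, adjusted p = 0.144), Rgs5 (-1.43, adjusted p = 0.0616) and Kcnj8 (1.72, adjusted p = 0.0550) no longer passed the test. Kcnj8 also lost its call with the block in IC (1.36, adjusted p = 0.218) and IS-HA (1.28, adjusted p = 0.0888), and in IS-HA with only the groups compared (1.18, adjusted p = 0.109). Rgs5 lost its IS-HA call with only the groups compared (-1.41, adjusted p = 0.0649). The causes were not tested. With 2 Normal rats and 3 in each other group, calls of small differences such as Pdgfrb in IS depend on single Normal rats, and a p that misses the threshold does not show equal levels.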
